A study of Mus musculus with 17 samples.

Results

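The genes described here are 10 that macrophages use to show antigen to helper T cells. Of these, 7 belong to the MHC class II pathway (H2-Aa, H2-Ab1, H2-Eb1, H2-DMa, H2-DMb1, Cd74 and Ciita) and 3 encode costimulatory surface proteins (Cd80, Cd86 and Cd40). They were chosen by symbol, each was on 1 row of the deposited table, and the table holds 38087 genes. RNA was sequenced from immune cells sorted out of a leg muscle, the tibialis anterior, of male mice of the DBA/2J strain, 3 months of age. The muscle had been injured with cardiotoxin, a snake venom component that destroys fibres and sets off regeneration. Every group came from injured muscle, and no genotype or drug differs between groups. The labels describe 17 samples. Day 1 gave 2 samples of neutrophils and 3 of Ly6C high macrophages, while days 2 and 4 each gave 3 samples of Ly6C high and 3 of Ly6C low macrophages. Whether the samples of a group came from different animals is not stated.

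A class II molecule is a pair of an alpha and a beta chain that carries peptides of engulfed proteins to the surface of antigen-presenting cells such as macrophages, dendritic cells and B cells. The invariant chain, encoded by Cd74, fills the groove until H2-DM exchanges its remnant for a peptide, and the coactivator encoded by Ciita drives transcription of these genes. Helper T cells that see the peptide also need a costimulatory signal, which CD80 and CD86 give through CD28, while CD40 receives the signal of CD40 ligand on the T cell. In regenerating muscle, inflammatory Ly6C high macrophages enter first and are followed by Ly6C low macrophages that accompany repair.

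Values are the authors' log2 normalised reads, 1 per group and none per sample. No standard deviation, p-value or replicate check can be given, and which neighbours in an order of levels differ beyond the spread between samples is unknown. A difference is stated as its size on the log2 scale, where 1 is 2-fold. Only genes whose log2 value reached 5 in 1 or more of the groups involved entered a comparison. This minimum stood for an estimated 31.2 to 77.6 reads in a library. All 10 members passed this in all 8 comparisons. Some genes, such as Ciita against neutrophils, reached it in only 1 group and entered through the group where they were high. Counts that include such genes are partly set by this minimum. Ly6c2, which encodes Ly6C, followed the sort (9.65 to 10.56 in Ly6C high groups, 6.16 and 4.64 in Ly6C low groups). Ly6g, the gene of a neutrophil surface protein, had a value of 3.48 for neutrophils and 0 for each of the 5 macrophage columns. The neutrophil column also held macrophage transcripts, with Csf1r at 13.27 against 13.31 to 14.71 in the macrophages. Its class II values therefore cannot be assigned to neutrophils alone.

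Class II promoters are known for a shared module in which an X box lies a fixed distance before a Y box. The windows of 250 bases before the start, from RefSeq on GRCm38.p6 (the C57BL/6J reference; the DBA/2J sequence was not analysed here), were searched on both strands. The letters were GNAAC for the start of the X box and GATTGG for the Y box, with 20 to 30 bases between them. These letters were chosen with the sequences seen. Windows were matched for 5 of the 10 members (H2-Aa, H2-Eb1, H2-DMa, H2-DMb1 and Cd80), and H2-Ab1, Cd74, Ciita, Cd86 and Cd40 were not matched. The pair was present in H2-Aa, H2-Eb1 and H2-DMb1, and 0.551% of 32851 windows hold it. Alone, GNAAC is in 79.6% of windows and GATTGG in 14.6%. The stretch with the pair is shown for H2-Aa and H2-Eb1, and for H2-Ob, a class II gene that, unlike these, was not lowest in neutrophils. Capitals mark GNAAC and GATTGG, and in H2-Aa also TGACGTCA, the binding motif of CREB, which is in 1.55% of windows and overlaps neither of the others.
H2-Aa: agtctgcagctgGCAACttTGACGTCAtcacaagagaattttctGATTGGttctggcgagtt
H2-Eb1: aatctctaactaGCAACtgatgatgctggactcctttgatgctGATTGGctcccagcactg
H2-Ob: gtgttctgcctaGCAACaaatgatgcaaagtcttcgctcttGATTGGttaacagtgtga

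The H2-Aa stretch lies at chr17:34287855-34287916 on the minus strand, that of H2-Eb1 at chr17:34305764-34305824 and that of H2-Ob at chr17:34238806-34238864, the latter both on the plus strand. In H2-DMb1 the pair lies before the RefSeq start but within an exon of the GENCODE gene, whose start is further upstream, and that stretch is not shown. The gap between the capitals is 27 bases in H2-Aa, 26 in H2-Eb1 and 24 in H2-Ob. GNAAC begins 81 bases before the RefSeq start in H2-Aa and 91 in H2-Eb1. Of 9 other genes of the class II pathway with a window, the pair was in 3 (H2-Ob, H2-Oa and H2-Eb2). It was not found for the chain gene H2-DMb2, nor for the processing genes Ctss, Ctsl, Lgmn, Ifi30 and Sppl2a. A match of letters is a description and was not tied to the binding of any factor here.

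The chain genes lie together on chromosome 17 of GRCm38, H2-Aa at 34282744 to 34287823 (minus strand), H2-Ab1 at 34257689 to 34269419 and H2-Eb1 at 34305867 to 34316674. All 3 were lowest in neutrophils and highest in Ly6C high macrophages of day 4. H2-Aa, the alpha chain of I-A, had a log2 value of 8.48 for neutrophils, 11.06, 11.62 and 13.29 for Ly6C high macrophages (days 1, 2 and 4), and 10.40 and 12.32 for Ly6C low macrophages (days 2 and 4). H2-Ab1, its beta chain, had 7.69, then 10.83, 11.50 and 13.05 over the Ly6C high groups, with 10.32 and 12.08 for Ly6C low. H2-Eb1, the beta chain of I-E, was at 8.37, then 11.36, 11.83 and 13.44, and at 10.94 and 12.46. The highest group exceeded the lowest 28.1-fold for H2-Aa, 41.1-fold for H2-Ab1 and 33.6-fold for H2-Eb1. Within each cell subset the later day was the higher, and on each shared day the Ly6C low group was below the Ly6C high group.

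The genes of peptide loading took the same order of groups. Cd74 (chromosome 18, 60803848 to 60812652) had 10.40 for neutrophils, 13.92, 14.38 and 15.86 for Ly6C high macrophages, with 13.18 and 15.01 for Ly6C low macrophages. H2-DMa (chromosome 17, 34119541 to 34139101), the alpha chain of the exchange factor, was at 7.25, then 9.98, 10.50 and 11.21, and at 9.33 and 10.79. H2-DMb1 (chromosome 17, 34153072 to 34160230), its beta chain, was at 6.43, then 7.89, 8.33 and 9.54, and at 7.02 and 8.79. The span from lowest to highest group was 44.0-fold for Cd74, 15.6-fold for H2-DMa and 8.62-fold for H2-DMb1. For these 6 chain and loading genes the groups ranked alike, with Ly6C high day 4 first, then Ly6C low day 4, Ly6C high day 2, Ly6C high day 1, Ly6C low day 2 and neutrophils. H2-DMb1 has a near-identical neighbour, H2-DMb2, whose values were within -0.10 to 0.19 of it in every group, and the counting may have split or shared their reads. H2-DMa overlaps the antisense gene Brd2 and H2-Eb1 overlaps Gm20513, and whether the counting used strand is not given in the sources used here.

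Ciita, on chromosome 16 at 10480059 to 10528418, encodes the master coactivator of the class II genes and had the widest range of the 10 members, 55.8-fold. Its log2 value was 2.82 for neutrophils, 5.96, 6.80 and 8.62 for Ly6C high macrophages (days 1, 2 and 4), and 5.71 and 8.63 for Ly6C low macrophages (days 2 and 4). The 2 day 4 groups were thus at one level (394 and 395 normalised reads), where the other 6 class II members were lower in Ly6C low cells. The neutrophil value stood for an estimated 6.90 to 7.37 reads in a library, so that fold is imprecise. Ciita overlaps the antisense gene Dexi.

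The costimulatory genes did not share an order of groups. Cd80 (chromosome 16, 38455561 to 38496335) had 10.46 for neutrophils, 10.81, 10.29 and 9.42 for Ly6C high macrophages, with 8.63 and 8.17 for Ly6C low macrophages. It was highest in Ly6C high cells of day 1, followed by neutrophils, which were sampled on day 1 only. It was lowest in Ly6C low cells of day 4, with a span of 6.23-fold. Cd86 (chromosome 16, 36603869 to 36666081, minus strand) was at 8.86, then 12.16, 11.89 and 11.60, and at 10.65 and 11.08. Its 9.89-fold span was set by the low neutrophil value, and among macrophages it was highest in Ly6C high cells of day 1. Cd40 (chromosome 2, 165055627 to 165072948) was at 5.82, then 8.27, 8.18 and 9.46, and at 8.48 and 9.39, a span of 12.5-fold. Like Ciita it was close between the subsets on day 4, and it was the 1 member higher in Ly6C low than in Ly6C high cells on day 2.

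**Figure D1:**
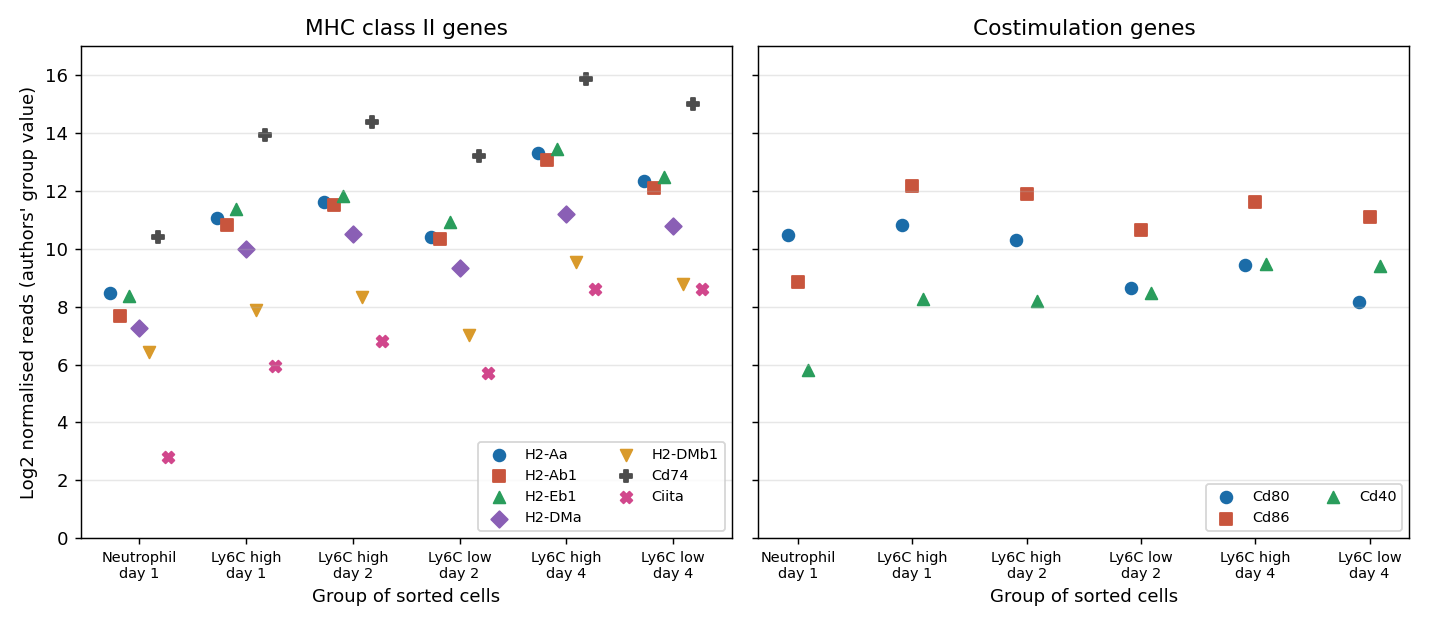
Log2 normalised reads (vertical axis, the authors' value for a group, no error bars because there is 1 value per group) of the 7 MHC class II genes (left) and 3 costimulation genes (right) in the 6 groups of sorted cells (horizontal axis). Cd74 lies between 10.40 and 15.86 and above the other class II genes in every group, while Cd80 is at 10.46 and 10.81 on day 1 and at 8.17 in Ly6C low cells of day 4.

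The first comparison set Ly6C high macrophages against neutrophils of day 1. All 7 class II members were at least 2-fold higher in the macrophages (median difference 2.99), where 16.6% of the 11890 genes compared were higher to that degree and 16.1% lower. Cd74 differed by 3.52, H2-Ab1 by 3.15, Ciita by 3.14, H2-Eb1 by 2.99, H2-DMa by 2.73, H2-Aa by 2.58 and H2-DMb1 by 1.45. Cd86 and Cd40 were higher by 3.31 and 2.45, whereas Cd80 differed by 0.35. Markers of conventional dendritic cells, which also carry class II, were higher for 7 of the 10 compared and lower for 2, with a median difference of 2.29. Their summed log2 level went the other way (10.38 in the macrophages against 10.77 in neutrophils), with Cadm1 at 7.24 against 10.19. Of the neutrophil markers, 8 of 8 compared were lower in the macrophages (summed level 11.96 against 16.43). Of 10 endothelial markers 7 were higher and 1 lower (10.29 against 9.79), and 5 of 5 fibroblast markers were higher (8.67 against 5.93). No fibroblast marker reached 5 in neutrophils. Of the higher endothelial genes only Pecam1 did, and of the higher conventional dendritic genes only Clec10a. The counts of these lists are thus largely set by the minimum. The part of all these cell types in the member values was not tested. In such bulk samples, fewer cells of a type and less RNA per cell cannot be told apart.

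From day 1 to day 2 the Ly6C high groups were close. No member was 2-fold apart, against 1.41% of 11232 genes higher and 1.10% lower. The 7 class II members were all above day 1, by 0.45 to 0.84 with a median of 0.52. The costimulation members were below it, Cd80 by 0.52, Cd86 by 0.28 and Cd40 by 0.10 on the log2 scale. Of 6 fibroblast markers 4 were higher on day 2 (10.37 against 8.67) and neutrophil markers lower for 4 of 6 (10.97 against 11.96), and their part was not tested.

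Between day 2 and day 4 of the Ly6C high cells, 6 of the 7 class II members were at least 2-fold higher on day 4, where 14.3% of 12348 genes were higher and 2.00% lower. The differences were 1.82 for Ciita, 1.67 for H2-Aa, 1.61 for H2-Eb1, 1.55 for H2-Ab1, 1.48 for Cd74 and 1.21 for H2-DMb1, and H2-DMa was short of 2-fold at 0.71. Cd40 was higher by 1.28, a difference in the range of the class II genes. Cd80 and Cd86 went the other way, at -0.87 and -0.29. Relative to day 1, which shares the day 4 column, all 7 class II members were higher on day 4 (median 2.07), with H2-DMa at 1.23 and Ciita at 2.66, against 17.6% of 12391 genes higher and 3.97% lower. Cd40 was 1.18 above day 1, Cd86 was at -0.57 and Cd80 at -1.39.

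Genes of other cell types were also higher in the Ly6C high column of day 4 than on day 2. Plasmacytoid dendritic cell markers were higher for 7 of 9 (summed log2 level 11.97 against 10.62), conventional dendritic cell markers for 4 of 10 (11.82 against 10.82), B cell markers for 3 of 5 (8.62 against 7.18) and T and NK cell markers for 2 of 2 compared (9.23 against 6.81). Endothelial markers were higher for 12 of 12 (12.74 against 10.19) and fibroblast markers for 10 of 10 (15.85 against 10.37). Flt3, a receptor of dendritic cells and their precursors, was at 7.84 against 6.32, and Siglech, a plasmacytoid marker, at 9.51 against 7.03. Of the B cell markers, Ebf1 was at 7.27 against 3.39, Fcrla at 5.36 against 2.90 and Cd79b at 5.86 against 4.26, while Pax5 was at 0.14 and Fcer2a at 0.17 on day 4. In the T and NK list, Thy1 was at 8.62 against 5.40 and Cd8a at 6.02 against 3.13, and the others stayed below 5. Ebf1, Fcrla, Cd79b and Cd8a reached 5 only on day 4, so the B, T and NK counts are partly set by the minimum. So are the other counts, because further higher genes reached 5 only on day 4. These were Dpt, Pdgfra, Lum, Fbln1 and Mfap5 (fibroblast), Pacsin1, Klk1 and Cox6a2 (plasmacytoid), Tek and Emcn (endothelial) and Clec9a (conventional dendritic). The part of dendritic, B, T, NK, endothelial and fibroblast cells in the class II values was not tested.

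In Ly6C low cells, day 4 was again above day 2 for all 7 class II members, where 9.23% of 11824 genes were at least 2-fold higher and 2.16% lower. Ciita differed most, by 2.91, and the other 6 by 1.46 (H2-DMa) to 1.92 (H2-Aa). Cd40 was higher by 0.91, Cd86 by 0.43 and Cd80 was at -0.46, all short of 2-fold. Of the plasmacytoid dendritic markers only 2 of 9 were compared and neither was 2-fold apart (summed level 10.29 against 9.77). Conventional dendritic markers were higher for 2 of 9 (12.01 against 11.58), and endothelial markers for 0 of 5 (9.82 against 9.20). Fibroblast markers were higher for 10 of 10 (13.86 against 7.87), though only Col1a1, Col1a2 and Col3a1 reached 5 on day 2. Batf3, of the higher conventional markers, also reached it only on day 4. The counts of these lists are thus partly set by the minimum, and the part of these cell types was not tested.

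**Figure D2:**
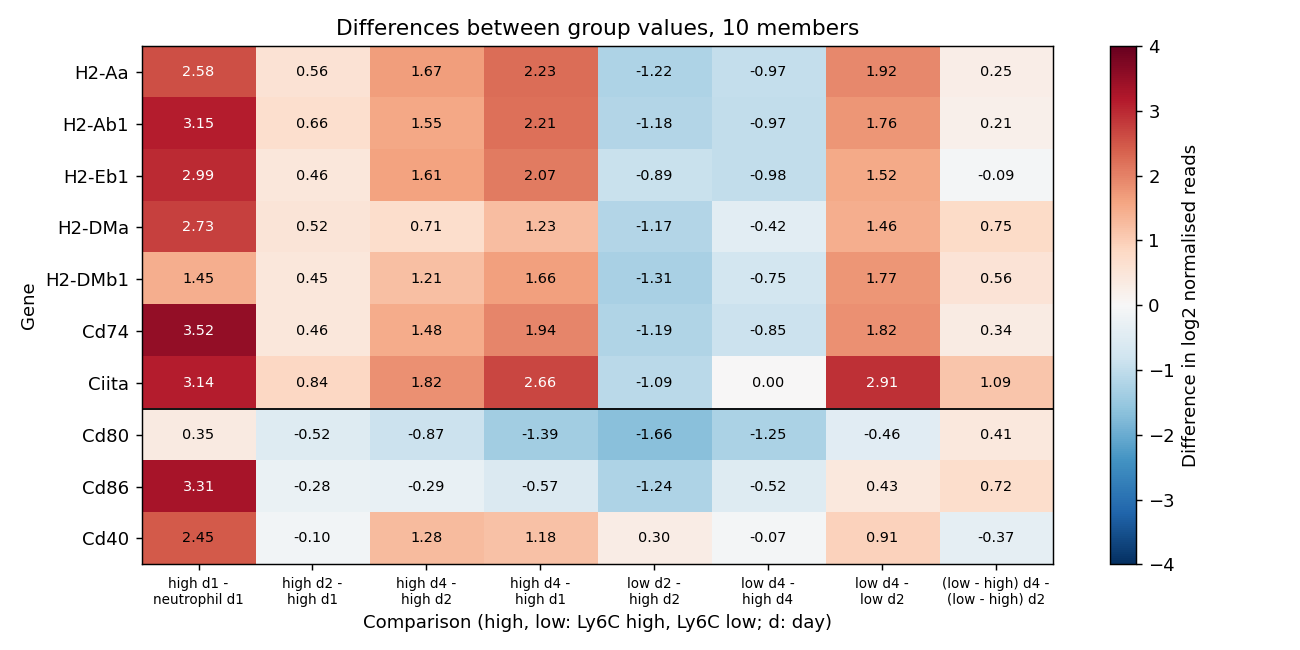
Differences in log2 normalised reads (colour and printed value, first group minus second) for the 10 members (vertical axis) in 8 comparisons (horizontal axis). The class II genes are positive in every comparison of a later with an earlier day, by 0.45 to 2.91, while Cd80 is negative in all 4 of them.

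The subsets were compared on the same day. On day 2, 6 of the 7 class II members were at least 2-fold lower in Ly6C low than in Ly6C high macrophages, where 4.03% of 11482 genes were lower and 3.71% higher. H2-DMb1 was at -1.31, H2-Aa at -1.22, Cd74 at -1.19, H2-Ab1 at -1.18, H2-DMa at -1.17 and Ciita at -1.09, and H2-Eb1 was at -0.89. Cd80 and Cd86 were lower as well, at -1.66 and -1.24, and Cd40 was at 0.30. In the same comparison 5 of 6 plasmacytoid dendritic markers were lower (median difference -2.85, summed level 9.77 against 10.62), and 3 of 9 conventional dendritic markers were lower and 2 higher (median difference -0.39, summed level 11.58 against 10.82). There, 7 of 10 endothelial markers were lower (9.20 against 10.19) and so were 5 of 5 fibroblast markers (7.87 against 10.37). Of the lower plasmacytoid genes, only Runx2 (6.99 against 8.31) reached 5 in both columns. Of the lower endothelial genes, only Cdh5 and Pecam1 did. Flt3, Postn and Dcn did not, so the counts of these lists are partly set by the minimum. The part of these cell types in the member values was not tested.

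On day 4 the 3 chain genes were just short of 2-fold lower in Ly6C low cells, with H2-Aa at -0.97, H2-Ab1 at -0.97 and H2-Eb1 at -0.98. Cd74 was at -0.85, H2-DMb1 at -0.75, H2-DMa at -0.42 and Ciita at 0.00. The median was -0.85 and none of the 7 passed 2-fold, where 8.93% of 12438 genes were lower and 2.44% higher. With quantile normalization of the columns the 3 chain genes and Cd74 did pass it (-1.05 to -1.09), and with median-ratio rescaling H2-Eb1 did, while Ciita turned to -0.02. Cd80 was lower by 1.25 on the log2 scale, Cd86 was at -0.52 and Cd40 at -0.07. Plasmacytoid dendritic markers were lower for 8 of 9 (10.29 against 11.97), endothelial markers for 11 of 12 (9.82 against 12.74), fibroblast markers for 10 of 10 (13.86 against 15.85) and conventional dendritic markers for 4 of 11 with 1 higher (12.01 against 11.82). These sums are carried by a few genes. The median difference of the plasmacytoid list was -5.25, with Spib at 3.34 against 9.73 and Siglech at 3.99 against 9.51, while Tcf4, at 10.43 in Ly6C high cells, was less than 2-fold lower. The median difference of the conventional list was -0.75, against the direction of its sum, with Flt3 at 5.53 against 7.84, Clec9a at 3.90 against 6.45 and Fscn1 at 7.42 against 9.42, while Cadm1 was at 11.12 against 10.04. B cell markers were lower for 3 of 5 (7.31 against 8.62) and T and NK cell markers for 2 of 2 (6.76 against 9.23). Of these lower B, T and NK genes, only Thy1 (6.15 against 8.62) reached 5 in both columns. Of the lower plasmacytoid genes, only Runx2 did (7.15 against 8.61). The lower endothelial genes Tek, Cldn5, Esam, Flt1, Emcn, Egfl7 and Ptprb and the conventional dendritic gene Clec9a did not. The counts of these lists are thus partly set by the minimum. The part of these cell types in the class II differences was not tested.

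The gap between the subsets was then set side by side for the 2 days, by subtracting the day 2 difference from that of day 4. Ciita was the 1 member past 2-fold, at 1.09, where 0.967% of 12621 genes were as far above and 6.09% as far below. H2-DMa was at 0.75, Cd86 at 0.72, H2-DMb1 at 0.56, Cd80 at 0.41, Cd74 at 0.34 and H2-Aa at 0.25. H2-Ab1 was at 0.21 and turned to -0.03 with quantile normalization. H2-Eb1 and Cd40 were at -0.09 and -0.37. For the class II members other than Ciita, the gap on day 4 thus differed from that on day 2 by less than 2-fold.

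The share of higher genes among all those 2-fold apart moved with the scaling of the columns. As deposited it was 87.7% for Ly6C high day 4 against day 2, 81.6% for day 4 against day 1, 81.1% for Ly6C low day 4 against day 2, 21.4% for the subsets on day 4 and 13.7% for the difference of the gaps. Quantile normalization gave 66.4%, 62.5%, 68.8%, 36.8% and 28.2% in the same order.

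The processing notes name mm10 while the mice were DBA/2J, so reads lost at strain differences may vary by gene, which was not examined. With that limit, levels of different members were set side by side after division by length, as log2 normalised reads per kilobase of the principal transcript. On that scale Cd74 was the highest of the 10 members and Ciita the lowest in every group, with either the principal transcript or the union of exons as the length. Cd74 was above H2-Ab1 by 2.49 to 2.86 with the principal transcript and by 3.32 to 3.70 with the union of exons. The next values use the principal transcript. The mean of the 3 chain genes was above Ciita by 7.54 in neutrophils and 7.32 in Ly6C high cells of day 1, and by 6.83 and 5.85 in Ly6C high and Ly6C low cells of day 4. The pair of CD28 ligands changed places: per kilobase, Cd86 minus Cd80 was -1.28 in neutrophils, 1.67, 1.92 and 2.50 in Ly6C high macrophages on days 1, 2 and 4, and 2.34 and 3.23 in Ly6C low macrophages on days 2 and 4. Neutrophils were the group in which the Cd80 level exceeded that of Cd86, and Cd86 led by more on the later day in each subset.

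To describe how alike the courses were, the mean over the 6 groups was subtracted from each gene, and the root mean square distance between such centred profiles was taken. From the mean profile of the 6 chain and loading genes, H2-Aa lay 0.12 away, H2-Eb1 0.16, H2-Ab1 0.23, H2-DMa 0.25, Cd74 0.29 and H2-DMb1 0.54, though these genes make up that mean. Among the members outside it, Cd40 lay 0.53 away, Ciita 0.63, Cd86 0.87 and Cd80 2.04. Among 13031 genes reaching a log2 value of 5, the nearest to that mean were H2-Ea-ps (0.23), Dpp4 (0.30), a cell-surface peptidase, Gm20547 (0.31), Cfb (0.31) and Adrbk2 (0.32), a receptor kinase. Gm20547 overlaps the complement gene Cfb and may share its reads. H2-Ea-ps is the I-E alpha chain, which is a pseudogene in the reference strain and a working gene in strains such as DBA/2J.

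The genes nearest to each of the other members were others. Nearest to Ciita were Slamf8 (0.40), Tmem176a (0.45) and St8sia6 (0.49). Cd80 was closest to Pkd1l2 (0.14), to Traf1 (0.15), which encodes a signalling adaptor, and to Mefv (0.20), which encodes pyrin. Around Cd86 lay Gramd4 (0.18), Gm6155 (0.24) and Gm14519 (0.25). Among the genes nearest to Cd40 were Gm9770 (0.19) and the lysosomal protease gene Ctsh (0.20). With 6 values per gene such likeness is a description only.

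**Figure D3:**
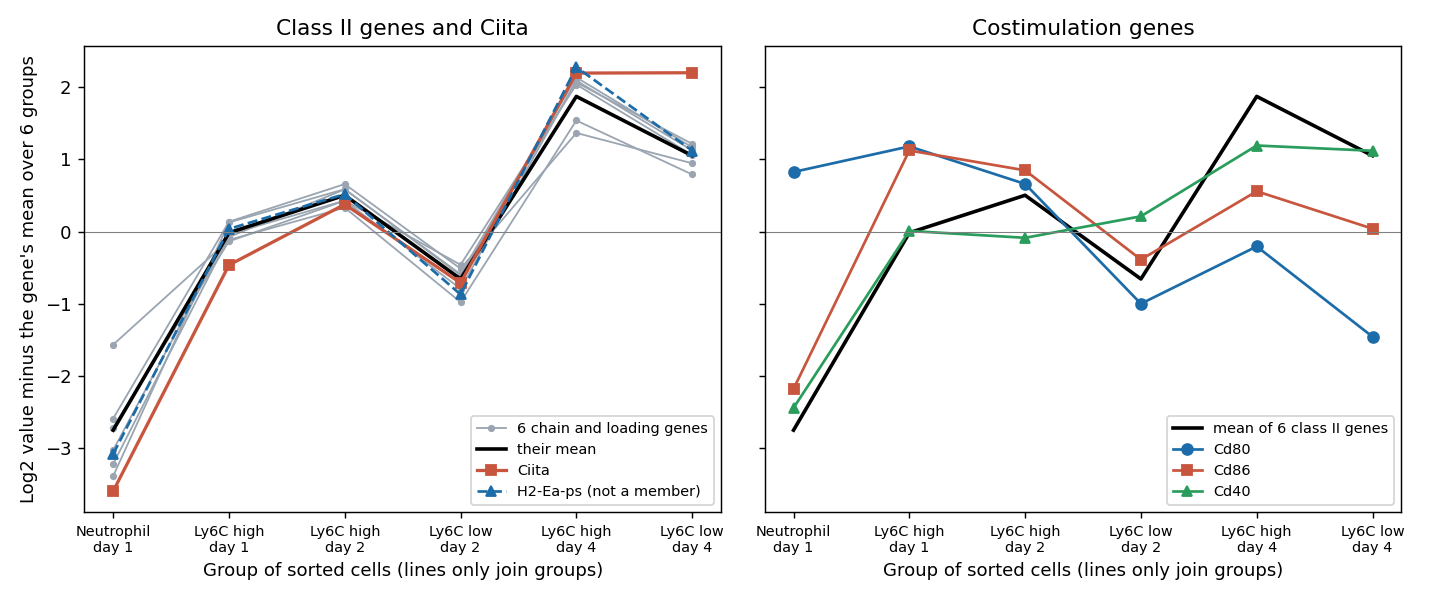
Log2 value minus the gene's mean over the 6 groups (vertical axis) by group (horizontal axis, lines only join groups), for the 6 chain and loading genes (grey), their mean (black), Ciita and H2-Ea-ps on the left, and the same mean with Cd80, Cd86 and Cd40 on the right. Ciita is equally high in both day 4 groups, where the other curves on the left are lower in Ly6C low cells, and in neutrophils H2-DMb1 (grey) lies above and Ciita below the rest, while on the right Cd80 is above its own mean in neutrophils and below it on day 4.

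The other genes of the class II pathway did not all follow the members. Of 13 in the table, 3 of the 11 compared were at least 2-fold higher in Ly6C high cells of day 4 than of day 2 and none was lower. In Ly6C low cells 4 of 11 were higher and none lower. Over all genes compared, 14.3% and 9.23% were higher. H2-Ea-ps had 8.62 for neutrophils, 11.74, 12.23 and 13.99 for Ly6C high cells, with 10.84 and 12.83 for Ly6C low cells. H2-Ob, a chain of the H2-O inhibitor of H2-DM, was at 5.52, then 3.60, 4.40 and 5.64, and at 3.71 and 5.47, so that neutrophils and day 4 cells were near each other. Its partner H2-Oa was listed at 0 in neutrophils and reached 4.95, and H2-Eb2 was at 1.02 or below in every group. March1 encodes the ligase that sends class II and CD86 to degradation. It had 8.49 for neutrophils, 6.75, 6.61 and 7.66 for Ly6C high cells, with 6.73 and 8.53 for Ly6C low cells. Cd83, whose product opposes that ligase, was at 10.34, then 13.56, 13.44 and 13.90, and at 13.11 and 14.06.

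Among lysosomal genes that cut the invariant chain or the antigen, Ctss was higher on later days and in Ly6C low cells, with 13.61 for neutrophils, 14.21, 14.61 and 15.12 for Ly6C high and 15.03 and 15.70 for Ly6C low. That places it opposite to its substrate Cd74 between the subsets. Ctsl was 1.23 higher in Ly6C low than in Ly6C high cells on day 4 (14.80 against 13.57), and Lgmn was at 14.73 against 14.43.

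Of 11 transcription factors that act at class II promoters or beside CIITA, all were compared and few were 2-fold apart. The X box factors Rfx5, Rfxap and Rfxank stayed within 6.12 to 7.70 over all groups, and the Y box factors Nfya, Nfyb and Nfyc within 7.17 to 10.55. Irf8 had 10.29 for Ly6C high cells of day 2 and 11.30 for those of day 4. It was the 1 gene of this list at least 2-fold higher there, where 14.3% of all genes compared were. Irf4 had 5.85 for neutrophils and 8.60 for Ly6C high cells of day 1. In Ly6C low cells Irf4 was 1.03 higher on day 4 (8.91 against 7.88).

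Interferon gamma is the classical inducer of Ciita, and a list of its pathway and targets was set beside the members. In Ly6C high cells 5 of 12 compared were at least 2-fold higher on day 4 than on day 2 and none lower. In Ly6C low cells it was also 5 of 12. Over all genes compared, 14.3% were higher in Ly6C high and 9.23% in Ly6C low cells. Cxcl9 and Iigp1 reached the minimum only on day 4, so their place in these counts is partly set by it. Cxcl9, a chemokine induced by interferon gamma, had 1.49 for neutrophils, 1.94, 3.55 and 8.36 for Ly6C high cells, with 1.88 and 6.92 for Ly6C low cells. Iigp1, an interferon-inducible GTPase, was at 8.62 and 6.63 on day 4 and at 3.37 or below in the other groups. Irf1 was higher in neutrophils than in Ly6C high cells of day 1 (11.86 against 10.13), and so was Gbp2 (8.82 against 7.26), where Ciita was lower (2.82 against 5.96). Ifng itself stayed below the minimum, listed at 0 in 4 groups and reaching 3.29 in Ly6C high cells of day 4. Its source and its part in the Ciita values were not tested.

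Of 15 other costimulatory and coinhibitory ligands, 3 of 10 compared were lower in Ly6C high cells than in neutrophils of day 1 and 1 was higher. Over all genes compared, 16.1% were lower and 16.6% higher. Cd274, which encodes PD-L1, had 13.33 for neutrophils, 10.79, 9.98 and 10.17 for Ly6C high cells, with 9.56 and 9.88 for Ly6C low cells. Icosl, the ligand of ICOS, was at 10.77 in neutrophils against 7.96 to 8.74 in the macrophage groups. Like Cd80, these ligands were not lowest in neutrophils. On day 4 against day 2, 2 of 11 were higher in Ly6C high cells and 3 of 12 in Ly6C low cells, and none was lower. Over all genes compared, 14.3% and 9.23% were higher. Each of these higher ligand genes reached the minimum only on day 4. Cd276, which encodes B7-H3, had 2.78 for neutrophils, 3.01, 3.91 and 8.15 for Ly6C high cells, with 4.74 and 8.22 for Ly6C low cells. It is also made by fibroblasts, whose markers were higher in the same columns, and their part was not tested.

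Downstream of CD40, 8 or 9 of 10 signalling genes were compared. None was 2-fold apart between days 4 and 2 of Ly6C high cells, where Cd40 was 1.28 higher. Over all genes compared there, 14.3% were higher and 2.00% lower. Traf1 had 12.22, 11.40 and 10.88 for Ly6C high cells, with 10.26 and 9.64 for Ly6C low cells. Traf5 was at 6.17, 6.10 and 6.79, and at 6.18 and 7.19. Il12b, a cytokine gene that CD40 signalling induces, was listed at 0 for neutrophils and had 3.48 and 4.67 for the Ly6C high and Ly6C low columns of day 4.

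**Figure D4:**
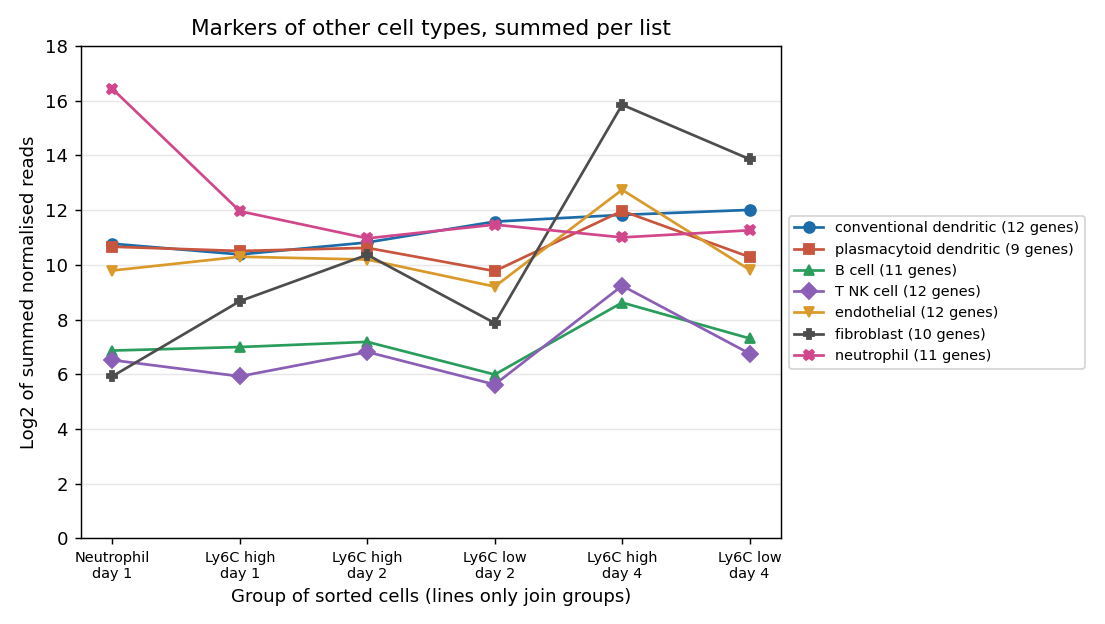
Log2 of the summed normalised reads of marker lists of other cell types (vertical axis) in the 6 groups (horizontal axis, lines only join groups, 1 value per group). Fibroblast markers reach 15.85 and 13.86 on day 4, endothelial and plasmacytoid dendritic markers are highest in Ly6C high cells of day 4 (12.74 and 11.97), and neutrophil markers are at 16.43 in neutrophils against 10.97 to 11.96 in the macrophage groups.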

How the data were processed

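The authors deposited 1 table of log2 normalised reads, holding 6 columns, 1 per group, so single samples are not seen. The submitters' processing notes name TopHat2 2.0.7, Cufflinks 2.0.2 and mm10, without roles. Neither annotation nor normalization was given in the sources used here. Per the labels' protocols, poly-A RNA went into TruSeq libraries. Total counts per sample cannot be had from these values. A part of the low values lay on ladders of whole reads, each ladder holding 5.37% to 46.4% of the low values of its group. As many ladders as samples were taken in each group, 17 in all. From these, 1 read was estimated to be worth 0.412 to 1.03 units. The labels' groups gave 7 pairs of columns and 1 difference of differences. Differences were taken on the deposited values (pandas 2.3.3, numpy 2.4.6), without a pseudocount, and no test was run. Named genes are the members, up to 4 genes of each of 16 lists per comparison that were furthest apart, defining markers at 0, and the genes with the nearest profiles (5 for the class II mean, 3 per other member). Others, among them genes that were not 2-fold apart, were chosen after their values were seen. A few genes that qualified for naming are not reported here. The members and lists were chosen with earlier results of these data known. Of the identifiers, 36308 (95.3%) were found in GENCODE M21, which gave coordinates on GRCm38. March1, whose symbol the table shows as a date, was matched by identifier. Alternatives were median-ratio rescaling, quantile normalization, a pseudocount of 5, no filter and a threshold of 1.5-fold. The code was tested on simulated data.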

Additional observations from a re-analysis of the deposited data

How the results depend on the processing

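The median differences of the class II and of the costimulation members kept their direction and moved by less than 1.5-fold in all 64 alternatives. Some of the 64 only dropped members below the minimum. Those could not change, because every member passes it. The class II median between the subsets on day 4 was -0.85 as deposited and passed 2-fold, at -1.05, with quantile normalization. The number of members 2-fold apart stayed within 1.5 times in 27 of 32. For Ly6C high day 2 against day 1 it went from 0 to 2 at 1.5-fold. For the subsets on day 4 it went from 1 to 6 at 1.5-fold, to 2 with median-ratio rescaling and to 5 with quantile normalization. For the difference of the gaps it went from 1 to 3 at 1.5-fold. These rescalings of the member counts were added after the data were seen. Over all genes, the median difference for Ly6C high day 1 against neutrophils was 0.08 as deposited and -0.07 with median-ratio rescaling, and that for Ly6C high day 4 against day 2 was 0.01 and -0.11 with quantile normalization. Without a filter the share of all genes 2-fold apart was 21.4% against 32.7% for Ly6C high against neutrophils and 14.2% against 21.6% for Ly6C high day 4 against day 1. It was within 1.5 times in the other comparisons, and higher for Ly6C high day 2 against day 1 (2.69% against 2.51%) and for the difference of the gaps (7.42% against 7.06%). Of 80 member differences, 1 changed sign under each rescaling, Ciita between the subsets on day 4 and H2-Ab1 in the difference of the gaps. No paired analysis was possible because the table holds 1 value per group, and for the same reason no sample could be left out. The Ciita value in neutrophils rests on few reads.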

Other observations

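Genes of the T cell side of antigen presentation were also measured in these columns. Cd4, the coreceptor that binds class II, had a log2 value of 3.41 for neutrophils, 4.27, 5.17 and 8.55 for Ly6C high cells (days 1, 2 and 4), and 3.98 and 8.92 for Ly6C low cells (days 2 and 4). Lag3, another receptor of class II, was at 2.46, then 4.62, 6.07 and 9.04, with 5.10 and 8.65 for Ly6C low. Cd28, the receptor of CD80 and CD86, was at 6.01, then 3.64, 5.21 and 7.02, with 5.52 and 7.96 for Ly6C low. On day 4 the T cell receptor genes were low in the Ly6C low column, with Cd3e at 1.59, Cd3d at 0.27, Cd3g at 0.11 and Trac at 0.30. In the Ly6C high column they were at 4.29, 2.38, 2.81 and 2.75, and Cd8a was at 6.02. Cd40lg, the ligand of CD40, was at 1.00 or below in every group.

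Of the costimulatory ligands, Tnfsf18, which encodes GITR ligand, had 1.28 for neutrophils, 1.54, 2.84 and 4.82 for Ly6C high cells, with 3.64 and 6.03 for Ly6C low cells. Cd70 was listed at 0 in every group. Muscle progenitor genes were higher in Ly6C low cells of day 4 than in Ly6C high cells, with Myog at 5.98 against 3.39.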
